A study of Mus musculus with 9 samples.

Results

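The transcripts described here are isoforms that transcript assembly placed inside a known mouse gene but that carry no gene name of their own. They were taken from a table of 158719 transcripts as follows. A transcript was kept when its name field was empty, when its locus (all transcripts under 1 gene identifier) held exactly 1 gene name besides, and when its mean over the 9 libraries was at least 0.5 FPKM. This left 6440 unnamed isoforms in 3639 genes, out of 17991 unnamed transcripts in all. FPKM is a transcript's fragment count divided by its length and by the fragments of the library, so it compares levels per length. For each gene the unnamed share was computed in each library, as the percentage of the gene's FPKM that lay on its unnamed isoforms. Members were thus chosen by their mean FPKM over all 9 libraries, so that mean is no finding. Just outside the limit stood isoforms of Ddx50, Sar1b and Cbl, at 0.49986, 0.49993 and 0.49996 FPKM. Just inside stood isoforms of Cryab, Iqce and Bclaf1, at 0.50013, 0.50048 and 0.50049 FPKM. The bands from 0.45 to 0.5 and from 0.5 to 0.55 FPKM held 264 isoforms each.

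The cells were 4T1, an established mouse mammary carcinoma line grown in DMEM with fetal bovine serum. There were 3 libraries each of a negative control (NC), of cells given MK1775, which is a small-molecule inhibitor of the kinase Wee1, and of cells labelled Wee1 siRNA, all of day 2. The design text sets both treatments against NC, with no dose or siRNA sequence stated. The siRNA titles carry the marks 1#, 2# and 3#, and the labels do not say whether these are replicates of 1 siRNA or different siRNAs. They are treated here as 1 group, as their common treatment label gives them. All 3 groups share the cell line, the medium and the library kit. The labels do not say whether replicates were separate cultures, so the spread between libraries may be technical, and p-values measure that spread only. Both treated groups are set against the same 3 NC libraries, so their results are not independent of each other.

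Wee1 RNA, on its named transcripts, stood at 11.5, 10.5 and 11 FPKM in NC, at 15.0, 14.7 and 16.8 in MK1775 and at 13.1, 15.1 and 15.3 in the libraries labelled Wee1 siRNA. It was not lower in the third group, so that group is named by its label throughout. The 7 epithelial markers summed to 410.3 to 476.5 FPKM in NC, 763.0 to 780.8 in MK1775 and 704.7 to 713.8 in the siRNA libraries, and nearly all of this was the keratins Krt8 and Krt18. The epithelial markers Epcam, Cldn7 and Esrp1 stayed at or below 0.573, 0.111 and 0.101 FPKM in all 9 libraries. Sums of FPKM per library lay between 321551 and 332950, and FPKM carries no read counts, so depth is unknown. The NC libraries stood apart in detection, since 54749 to 55808 named transcripts were above 0 there against 59481 to 62410 in the 6 treated libraries. The part of this gap in the results that follow was not tested.

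Most mammalian genes make more than one RNA. They do so by starting transcription at alternative promoters, by joining exons in different combinations, and by ending at alternative polyadenylation sites, and the resulting proteins or untranslated regions can differ. Assembly from short reads proposes such isoforms from the data. It then has to divide reads that fit several isoforms among them, which is hard where isoforms share most of their exons.

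Some unnamed isoforms began far upstream of the nearest named start, or deep inside the gene. For 5 such genes the annotated promoter of the most abundant named transcript is printed, because it is the start that the unnamed isoform leaves out. Sequences are from RefSeq, build GRCm38.p6, and run 5′ to 3′ on the gene's strand from 250 bases before to 50 bases after the RefSeq start. That start matched the start of the named transcript at Fhl2, Apln and Dnajc13. At Antxr2 and Leo1 it was offset from it by -55 and -12 bases, negative meaning upstream. The start of the named Antxr2 transcript therefore lies just past the printed window. Capitals mark matches, on either strand, to 4 motifs. TATAAA is the core promoter motif of the TATA-binding protein. CCAAT is the motif of factor NF-Y. GGGCGG is the GC box of the Sp1 family. TGANTCA is the motif of factor AP-1.
Fhl2, chr1:43163912-43164211, minus strand: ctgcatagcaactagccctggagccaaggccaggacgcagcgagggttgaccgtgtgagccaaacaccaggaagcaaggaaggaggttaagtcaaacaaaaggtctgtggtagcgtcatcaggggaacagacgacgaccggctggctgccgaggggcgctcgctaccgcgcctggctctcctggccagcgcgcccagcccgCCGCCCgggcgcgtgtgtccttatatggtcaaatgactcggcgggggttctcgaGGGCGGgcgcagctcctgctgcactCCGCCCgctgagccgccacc
Apln, chrX:48034804-48035103, minus strand: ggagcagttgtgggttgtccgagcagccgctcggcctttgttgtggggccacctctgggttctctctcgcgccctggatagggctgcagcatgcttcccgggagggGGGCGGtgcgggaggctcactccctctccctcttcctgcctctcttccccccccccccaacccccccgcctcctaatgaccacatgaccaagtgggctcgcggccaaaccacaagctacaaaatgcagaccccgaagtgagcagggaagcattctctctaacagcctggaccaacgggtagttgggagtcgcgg
Antxr2, chr5:98030968-98031267, minus strand: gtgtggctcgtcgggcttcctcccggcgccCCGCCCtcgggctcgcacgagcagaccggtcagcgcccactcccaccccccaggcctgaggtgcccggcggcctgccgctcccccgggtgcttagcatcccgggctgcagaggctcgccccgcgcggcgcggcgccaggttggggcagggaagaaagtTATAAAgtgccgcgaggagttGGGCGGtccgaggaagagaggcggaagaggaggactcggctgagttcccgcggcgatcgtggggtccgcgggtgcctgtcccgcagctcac
Leo1, chr9:75441274-75441573, plus strand: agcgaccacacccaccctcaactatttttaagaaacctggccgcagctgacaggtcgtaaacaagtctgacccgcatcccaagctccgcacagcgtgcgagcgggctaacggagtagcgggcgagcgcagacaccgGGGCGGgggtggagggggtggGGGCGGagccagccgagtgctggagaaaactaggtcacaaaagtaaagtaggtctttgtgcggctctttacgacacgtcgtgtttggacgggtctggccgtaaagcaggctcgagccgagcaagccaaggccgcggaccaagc
Dnajc13, chr9:104262881-104263180, minus strand: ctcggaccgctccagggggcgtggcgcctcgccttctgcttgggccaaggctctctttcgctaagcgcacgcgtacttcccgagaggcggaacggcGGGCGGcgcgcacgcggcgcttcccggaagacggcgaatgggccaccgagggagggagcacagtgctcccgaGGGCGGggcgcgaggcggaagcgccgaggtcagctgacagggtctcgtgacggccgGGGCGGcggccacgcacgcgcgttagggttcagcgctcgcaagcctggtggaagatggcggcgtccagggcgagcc
All 5 windows hold at least 1 GC box, and 1 of them, at Antxr2, also holds TATAAA. Among 32851 RefSeq promoter windows of the same length, 35.7% hold the GC box letters, 13.6% TATAAA, 37.4% CCAAT and 7.81% TGANTCA. RefSeq windows were matched for 2809 of the 3639 genes, and their 3853 windows hold the same letters in 64.1%, 6.31%, 36.1% and 5.16%. The median GC content was 61.7% in those windows and 52.7% in all. These are letter matches in annotated promoters and say nothing of the unnamed starts, whose build (GRCm39) was not used for sequence here. By the files' GRCm39 coordinates, the unnamed starts lay 3692 bp upstream of the nearest named start at Fhl2, 11619 bp at Apln, 4047 bp at Antxr2 and 19219 bp at Leo1. At Fhl2 the 2 scarcer named transcripts begin further upstream still. The Dnajc13 isoform begins inside the gene, downstream of the printed promoter.

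Most members resembled named transcripts at their ends. The 5′ end lay within 50 bp of a named 5′ end in 4654 isoforms (72.3%), and the 3′ end did so in 4960 (77.0%). Both ends did in 3561 (55.3%), where the matched ends may belong to different named transcripts. Another 452 isoforms (7.02%) began more than 1 kb upstream of the nearest named start, 358 of them outside all named transcripts of the gene, and 263 (4.08%) began more than 1 kb downstream. At the other end, 396 isoforms (6.15%) ran more than 1 kb past the nearest named end. Members had a median of 11 exons and 3540 bases, against 9 exons and 2676 bases for named transcripts at or above the same level in the same genes. A single exon made up 0.373% of members and 2.29% of those named transcripts. Against the most abundant named transcript of its gene, a member had more exons in 2556 cases, as many in 2371 and fewer in 1513. The longest chain had 94 exons, in Macf1, a cytoskeletal linker. Assembly gave 6424 members their own identifier, and the other 16 carried an Ensembl transcript identifier without a name.

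A single unnamed isoform was found in 2214 genes and 2 in 792, while 177 genes had 5 or more. Gm47283 and Map4k4, a stress-responsive kinase gene, had the most at 19. In 1058 genes (29.1%) the most abundant transcript of the locus was an unnamed one. Of 3508 genes with a nonzero total in all 9 libraries, 404 had an unnamed share over 50% in every library, 65 had at least 90% and 209 stayed under 10%.

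Unnamed isoforms took a larger part of all FPKM in each treated library than in each NC library. Members held 5.96%, 5.52% and 5.61% of all FPKM in NC, 6.16%, 6.63% and 6.38% in MK1775 and 6.46%, 6.31% and 6.31% in the siRNA libraries. The differences were 0.696 percentage points for MK1775 and 0.663 for siRNA, each with an exact two-sided permutation p of 0.1, the smallest that 3 against 3 libraries allow. The limit of 0.5 FPKM on the mean of 9 libraries favours isoforms that are high in the treated libraries. Of the members, 553 were at 0 in all NC libraries, against 187 in MK1775 and 216 in siRNA. These differences may therefore partly reflect that limit. All unnamed transcripts, without that limit, held means of 10.5%, 12.4% and 12.6% of FPKM in NC, MK1775 and siRNA. That is a wider set than the members. It includes unnamed transcripts in loci of several names and those outside named genes, the latter at 2.91%, 3.48% and 3.81%. For members, MK1775 and siRNA overlapped, with a difference of 0.033 points (exact permutation p = 0.8). Without the 10 most abundant members the group means were 5.05%, 5.77% and 5.84%. Member genes as a whole held 30.8% of FPKM in NC, 30.9% in MK1775 and 30.7% in siRNA, and these groups overlapped. In bulk RNA a change of level in every cell and a change in the number of cells that make an isoform cannot be told apart. Over the 3508 member genes with FPKM above 0 in all 9 libraries, the median unnamed share was 23%, 23% and 24.7% in NC, 27.7%, 28.1% and 27.1% in MK1775 and 28.1%, 27.3% and 27% in siRNA. The treated groups lay above NC by 4.04 and 3.87 percentage points without overlap (exact permutation p = 0.1 each). Over the 2565 genes with unnamed and named FPKM of at least 0.5 in every group, a limit chosen after the data were seen, the medians were 26.3%, 26.3% and 27.1% in NC, 28.2%, 28.9% and 28% in MK1775 and 28.5%, 28.6% and 28.2% in siRNA. The differences were then 1.80 and 1.88 points, again without overlap (exact permutation p = 0.1 each).

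**Figure D1:**
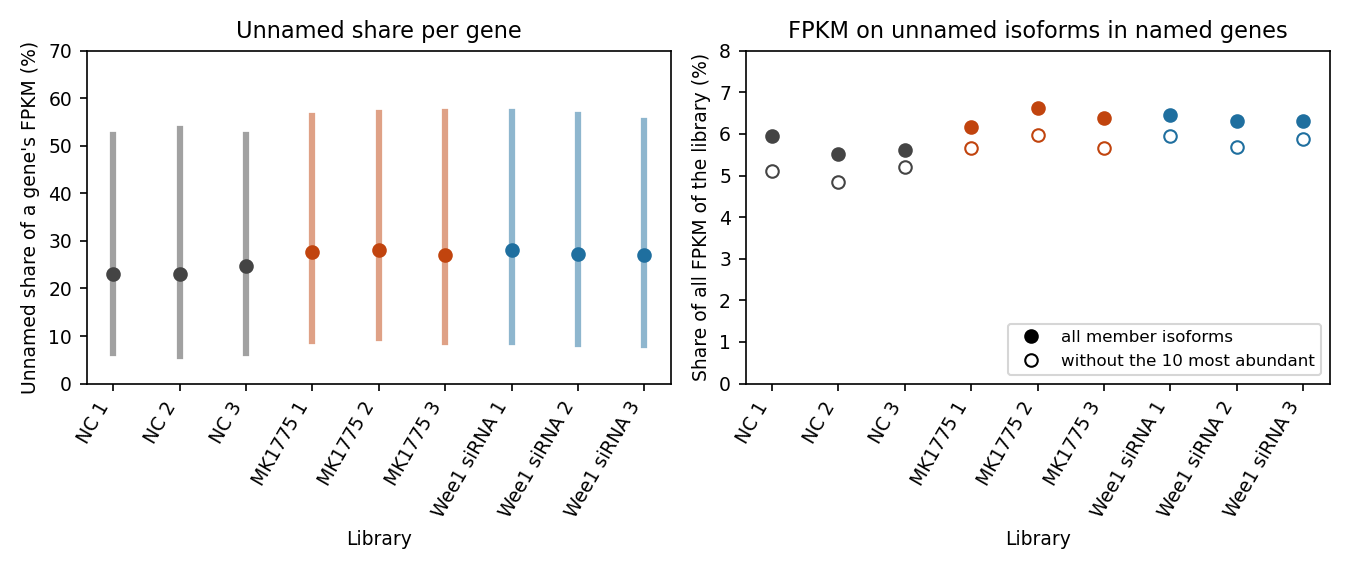
Left, the median (point) and the lower to upper quartile (bar) of the unnamed share per gene in each library, in percent of the gene's FPKM, over the 3508 genes with FPKM above 0 in all 9 libraries. Right, the percentage of all FPKM on member isoforms (filled) and the same without the 10 most abundant (open). All 6 treated libraries lie above the 3 NC libraries in both panels. Members were chosen by their mean over all 9 libraries, which favours isoforms high in the 6 treated ones.

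The size of the difference between groups varied with where an isoform began. Isoforms starting within 50 bp of a named start summed to 14183 ± 306.4 FPKM in NC (mean ± SD, n = 3), 14557 ± 522.0 in MK1775 and 14667 ± 285.7 in siRNA, and these groups overlapped (exact permutation p = 0.5 and 0.2). Isoforms starting 50 bp to 1 kb away summed to 3564 ± 127.9, 4167 ± 373.7 and 3852 ± 196.1 FPKM. MK1775 did not overlap NC there and siRNA did (exact permutation p = 0.1 and 0.2). Isoforms starting more than 1 kb upstream summed to 663.4 ± 124.5, 1481 ± 79.6 and 1715 ± 143.2 FPKM, with no overlap between treated groups and NC (exact permutation p = 0.1 each). Those starting more than 1 kb downstream summed to 222.5 ± 20.6, 528.3 ± 41.5 and 555.6 ± 47.4 FPKM, likewise without overlap (exact permutation p = 0.1 each). Upstream starters were also higher in siRNA than in MK1775 without overlap (exact permutation p = 0.1). Of the upstream starters, 176 (38.9%) were listed at 0 in all NC libraries, against 220 (4.73%) of those with a shared start. The limit of 0.5 FPKM on the mean of 9 libraries admits isoforms that are high in the 6 treated libraries alone, so the classes that are low in NC partly reflect that limit. Isoforms at 0.5 FPKM or more in every group were counted after the data were seen, by the test described next. Of 135 upstream starters, 11 were higher and 3 lower in MK1775, and 14 and 4 in siRNA. Shared starts gave 97 and 58 of 3144, and 107 and 76. Starts 50 bp to 1 kb away gave 23 and 14 of 639, and 24 and 14. Downstream starters gave 6 and 2 of 85, and 6 and 1. Median log2 differences in MK1775 were 0.037 for shared starts, 0.052 within 1 kb, 0.081 upstream and 0.156 downstream. In siRNA they were 0.035, 0.124, 0.236 and 0.192. Of all 22466 transcripts at that level in every group, 5.94% were higher and 7.28% lower in MK1775, and 6.8% and 7.87% in siRNA.

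**Figure D2:**
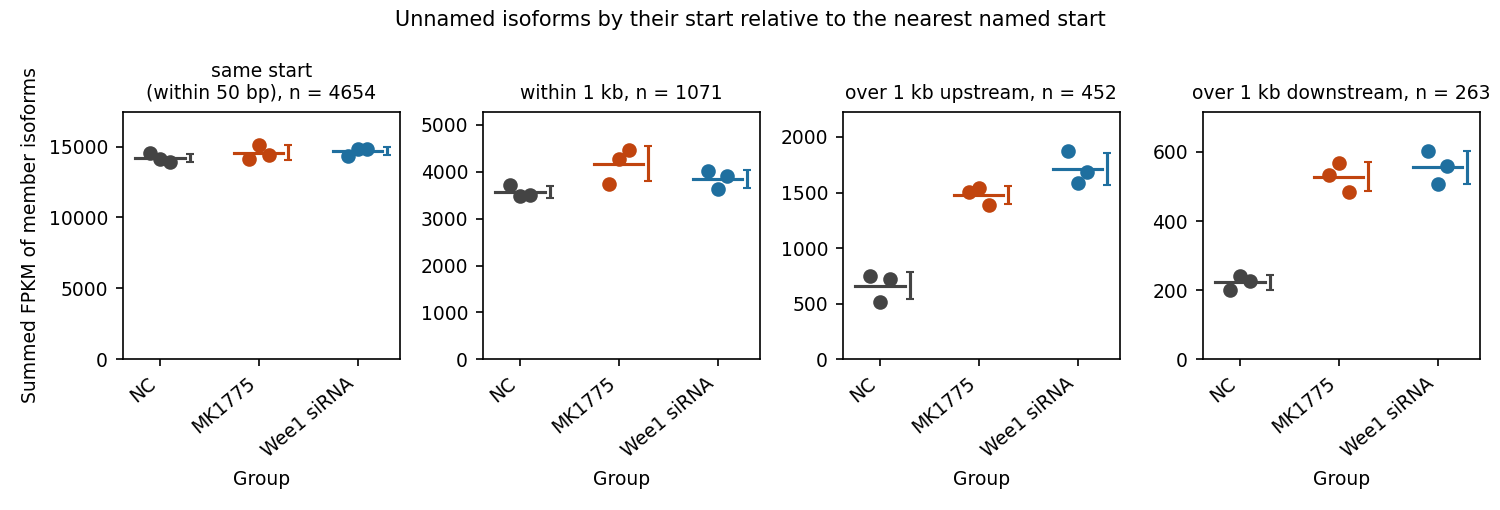
Summed FPKM of member isoforms in each library (points), with the group mean (line) and SD (bar beside it), for 4 classes of distance from the isoform's start to the nearest named start. The 2 classes starting over 1 kb away are higher in all 6 treated libraries than in NC. They partly reflect the limit on the mean of all 9 libraries, which admits isoforms high in the treated ones alone. Of the upstream and downstream starters, 176 of 452 and 64 of 263 were at 0 in all NC libraries. The class within 1 kb is higher than NC without overlap in MK1775 only, and the shared-start class overlaps between groups.

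Single isoforms were tested with limma on log2(FPKM + 0.5) across all 31008 transcripts at or above 0.5 FPKM, with Benjamini-Hochberg adjustment over all of them and a threshold of 0.05. The pseudocount of 0.5 shrinks differences of low transcripts. In MK1775 560 members were higher and 119 lower than in NC, and in siRNA 605 were higher and 141 lower. Over all transcripts tested, 11.9% were higher and 5.65% lower in MK1775, and 13.4% were higher and 6.14% lower in siRNA; in either direction it was 17.5% and 19.5%, beside 679 and 746 of the 6440 members. Among the 4003 members at 0.5 FPKM or more in every group, 137 were higher and 77 lower for MK1775, and 151 were higher and 95 lower for siRNA. The shares of all transcripts under that limit were the 5.94% and 7.28%, and 6.8% and 7.87%, given above. With quantile normalization the siRNA split was 456 higher and 223 lower. The median log2 difference of members was then 0.01 for MK1775 and -0.02 for siRNA, against 0.15 and 0.17 without it.

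The unnamed share of a gene was tested the same way, on the log2 ratio of unnamed to named FPKM with 0.5 added to each, over 5244 loci. Against NC, 149 member genes had a higher share in MK1775 and 16 a lower one, and in siRNA 148 were higher and 15 lower. The background over all loci tested was 3.51% higher and 0.4% lower for MK1775, and 3.62% and 0.439% for siRNA; in either direction it was 3.91% and 4.06%, close to the members' 165 and 163 of 3639. In 118 of the 149 genes higher in MK1775, and 123 of the 148 higher in siRNA, the unnamed FPKM of NC averaged under 0.5. In 98 member genes the whole gene was at 0 in all NC libraries, so no share exists there and the ratio rests on the added 0.5. Unnamed FPKM was at 0 in all NC libraries and above 0 in all treated libraries in 148 member genes. Of these, 37 had named FPKM above 0 in all NC libraries. A higher ratio can thus mean a gene detected only in treated cells. Among the 2565 genes with unnamed and named FPKM of at least 0.5 in every group, 23 were higher and 7 lower in MK1775, and 17 were higher and 7 lower in siRNA. Of all 3065 loci under that limit, 0.848% were higher and 0.261% lower in MK1775, and 0.816% and 0.228% in siRNA. Leaving out NC library 2 took the MK1775 count from 165 to 105.

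Fhl2 encodes a LIM-domain adaptor protein of the actin cytoskeleton and nucleus, and showed a near-complete exchange of isoforms. Its 2 unnamed isoforms, of 6 and 7 exons, both began 3692 bp upstream of the nearest named start and shared a named 3′ end (chr1:43162233-43208105 in GRCm39, minus strand). Their FPKM together was 0.0246, 1.94 and 1.24 in NC, 25.5, 25.3 and 26.9 in MK1775 and 25.1, 23.1 and 22.0 in siRNA. Named Fhl2 transcripts went the other way, at 13.0, 12.6 and 13.9 FPKM in NC, 0.819, 0.265 and 0.886 in MK1775 and 1.48, 1.18 and 4.19 in siRNA. The unnamed share was 0.188, 13.3 and 8.20% in NC, 96.9, 99.0 and 96.8% in MK1775 and 94.4, 95.1 and 84.0% in siRNA, with no overlap. The log2 ratio of unnamed to named FPKM rose by 7.95 (SE 0.64, adjusted p = 0.0003) and by 6.64 (SE 0.64, adjusted p = 0.0007). The call held in every alternative run for this gene, with each library left out in turn among them.

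Apln encodes apelin, a secreted peptide that acts on the apelin receptor of blood vessels. Its unnamed isoform of 3 exons (chrX:47114022-47135349, minus strand) began 11619 bp upstream of the nearest named start and stood at 3.97, 2.88 and 1.94 FPKM in NC, 15.3, 18.3 and 15.1 in MK1775 and 16.9, 13.3 and 13.5 in siRNA. Named transcripts were at 10.4, 13.1 and 12.7 FPKM in NC, 7.54, 4.23 and 7.25 in MK1775 and 4.16, 6.13 and 5.80 in siRNA. The unnamed isoform therefore went from the minor to the major form in all 6 treated libraries. Its level rose by 2.32 (SE 0.22, adjusted p = 0.00038) on the log2 scale in MK1775 and by 2.17 (SE 0.22, adjusted p = 0.00043) in siRNA.

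Antxr2 encodes a collagen-binding surface receptor that anthrax toxin uses for entry. The 18-exon unnamed isoform (chr5:98030638-98182949, minus strand) stood at 0.0104, 0.147 and 4.04 FPKM in NC, 11.4, 11.8 and 12.1 in MK1775 and 11.1, 10.4 and 10.7 in siRNA. NC library 3 was far above the other 2, though below every treated library. The isoform rose by 3.42 (SE 0.72, adjusted p = 0.014) and 3.29 (SE 0.72, adjusted p = 0.015), and both calls ended without NC library 2 (adjusted p = 0.053 and 0.054). Leo1 encodes a subunit of the PAF1 complex, which travels with elongating RNA polymerase. Its 2 unnamed isoforms began 19219 and 19129 bp upstream, and their share was 3.99, 0 and 1.01% in NC, 77.0, 97.3 and 53.5% in MK1775 and 80.0, 10.2 and 51.2% in siRNA. The Leo1 share was called in MK1775 (adjusted p = 0.032), a call that 6 of 9 left-out libraries ended (adjusted p 0.014 to 0.12), and was not called in siRNA (adjusted p = 0.17). Total Leo1 showed no call in either group (adjusted p = 0.61 and 0.073).

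Other isoforms began inside the gene and lacked its first exons. Dnajc13 encodes an endosomal co-chaperone of the DNAJ family. The leading one of its 2 unnamed isoforms, of 32 exons (chr9:104028482-104078516, minus strand), beside a main named transcript of 56 exons, was listed at 0 in all 3 NC libraries and stood at 15.2, 19.4 and 15.6 FPKM in MK1775 and 12.7, 15.9 and 21 in siRNA (adjusted p = 3.4e-06 and 3.0e-06). Named Dnajc13 was at 10.7, 8.73 and 10.0 FPKM in NC, 12.5, 8.48 and 11.8 in MK1775 and 12.7, 14.3 and 13.6 in siRNA, so the short form was added to a named level that overlapped in MK1775. Cd109 encodes a GPI-anchored surface protein that binds TGF-beta. Its 32-exon isoform began 10221 bp downstream of the nearest named start (chr9:78533266-78623535, plus strand), was listed at 0 in NC, and stood at 6.38, 6.78 and 6.35 FPKM in MK1775 and 5.76, 5.96 and 6.58 in siRNA (adjusted p = 1.8e-06 and 1.7e-06). Named Cd109 was at most 0.028 FPKM in any library, so nearly all Cd109 RNA of treated cells lay on this 1 form.

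Nfatc2 encodes a calcium-regulated transcription factor of activated lymphocytes and other cells. Its isoform of 6 exons began 34283 bp downstream of the nearest named start (chr2:168318335-168359913, minus strand), was listed at 0 in NC, and stood at 3.19, 3.71 and 2.30 FPKM in MK1775 and 3.47, 2.29 and 3.13 in siRNA (adjusted p = 0.00012 and 0.00012). Efr3b encodes a membrane anchor of a phosphatidylinositol 4-kinase. Its 3 unnamed isoforms, 2 of them starting 340 bp from an internal named start and 1 of them 3752 bp downstream of it, summed to 0, 0.0298 and 0 FPKM in NC, 25.7, 24.2 and 24.4 in MK1775 and 31.6, 25.9 and 31.2 in siRNA. Which of the 3 carried the FPKM differed between replicates, with the 14-exon form at 1.31, 17.7 and 11.1 FPKM and the 6-exon form at 13.7, 4.02 and 12.6 in the MK1775 libraries. Dhx34, a helicase of nonsense-mediated decay, had 5 unnamed isoforms. The leading one, starting 4080 bp downstream, stood at 1.29, 1.85 and 2.46 FPKM in NC, 10.8, 13.1 and 10.5 in MK1775 and 10.5, 12.9 and 10.8 in siRNA and rose by 2.36 (SE 0.20, adjusted p = 0.0002) and 2.35 (SE 0.20, adjusted p = 0.00018). The share of all unnamed Dhx34 isoforms was also called (adjusted p = 0.035 and 0.03), but 7 and 5 of the 9 left-out libraries ended those calls (adjusted p up to 0.11 and 0.099).

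Isoforms with annotated ends but other exons also rose. Cd44 encodes the hyaluronan receptor, a gene known for variable exons. An 11-exon isoform with both ends shared (chr2:102641490-102732010, minus strand), beside a main named transcript of 9 exons, stood at 0, 0.131 and 0 FPKM in NC, 34.8, 33.6 and 31.3 in MK1775 and 32.6, 9.88 and 13.5 in siRNA. All 6 treated libraries were higher, and siRNA library 1 stood near the MK1775 values. Its level rose by 5.96 (SE 0.38, adjusted p = 5.4e-05) in MK1775 and 4.97 (SE 0.38, adjusted p = 0.00012) in siRNA on the log2 scale. Cdk14 encodes a cyclin-Y-dependent kinase at the plasma membrane. Its 14-exon and 15-exon unnamed isoforms, with the ends of the named 15-exon transcript, took 0.873, 1.06 and 1.09% of the gene in NC, 66.4, 80.9 and 78.7% in MK1775 and 57.7, 49.4 and 68.4% in siRNA. The log2 ratio rose by 4.62 (SE 0.38, adjusted p = 0.00032) and 3.71 (SE 0.38, adjusted p = 0.00083), while the summed level of the gene was not called (adjusted p = 0.24 and 0.48).

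Mpc2 encodes a subunit of the mitochondrial pyruvate carrier. Its 2 unnamed isoforms, each with 6 exons beside 5 in the main named transcript, took 0, 0.0347 and 0% of the gene in NC, 72.4, 89.0 and 50.1% in MK1775 and 73.8, 84.2 and 64.8% in siRNA. One isoform was at 19.5, 22.9 and 2.52 FPKM in MK1775 and the other at 0, 0 and 10.4, so the 2 took turns between replicates while their sum stayed high. Zfp207 encodes a spindle-assembly zinc-finger protein, and its 9 unnamed isoforms together held 18.1, 13.7 and 19.3% in NC, 60.8, 53.7 and 46.4% in MK1775 and 61.1, 53.5 and 55.9% in siRNA. The Mpc2 and Zfp207 shares were called in both groups (adjusted p = 0.00085, 0.0007, 0.0058 and 0.0033), and the calls held with each library left out. Usp32, a deubiquitinase gene, differed in kind, since its member was a single exon of 226 bases inside the gene (chr11:84878405-84878630, minus strand). It stood at 1.71, 1.20 and 2.38 FPKM in NC, 7.81, 9.25 and 8.41 in MK1775 and 8.73, 11.3 and 12.3 in siRNA and rose by 2.02 (SE 0.21, adjusted p = 0.00062) and 2.34 (SE 0.21, adjusted p = 0.00027).

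Isoforms with another 3′ end were fewer. Cdkn3 encodes a phosphatase that acts on cyclin-dependent kinases. A 9-exon isoform that ran 3159 bp past the nearest named end (chr14:46997936-47012965, plus strand) stood at 3.07, 2.31 and 2.74 FPKM in NC, 22.9, 21.5 and 22.0 in MK1775 and 17.0, 20.3 and 21.2 in siRNA, with no overlap. It rose by 2.82 (SE 0.12, adjusted p = 7.4e-06) and 2.64 (SE 0.12, adjusted p = 9.3e-06) on the log2 scale. H1f5 encodes a linker histone, whose main named transcript has 1 exon. Its 2 unnamed isoforms had 2 exons each and ended 6273 and 6452 bp past the named end, and together they stood at 0.0241, 0.0514 and 0.0228 FPKM in NC, 6.83, 6.24 and 5.87 in MK1775 and 5.79, 5.95 and 7.87 in siRNA. Their share rose in both groups (adjusted p = 1.8e-05 and 1.6e-05). Summed over the 396 members ending more than 1 kb downstream, FPKM was 847.6 ± 6.41 in NC, 1155 ± 75.7 in MK1775 and 1094 ± 154.8 in siRNA (mean ± SD, n = 3, exact permutation p = 0.1 each). The rise was not particular to these ends. Members with a shared 3′ end summed to 14442, 16027 and 16088 FPKM in NC, MK1775 and siRNA. Those ending more than 1 kb upstream summed to 147.1, 277.5 and 296.3 FPKM. Treated groups lay above NC without overlap in both classes (exact permutation p = 0.1 each). Members ending within 1 kb without a shared end overlapped NC (exact permutation p = 0.8 and 0.7). The part of the limit on mean FPKM in these rises was not tested.

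**Figure D3:**
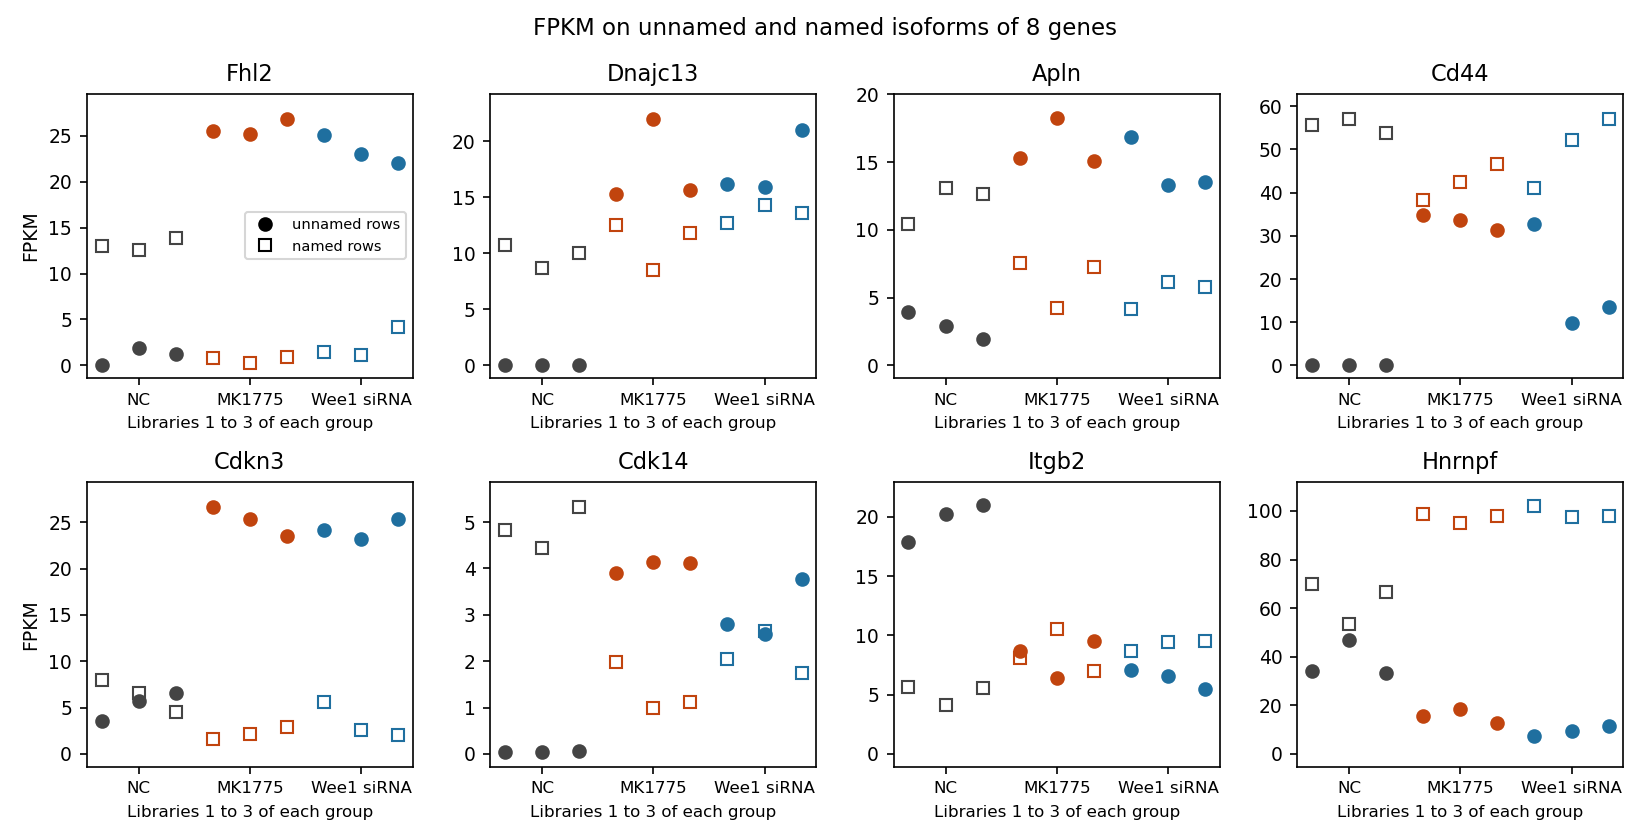
FPKM of each library on unnamed (filled circles) and named (open squares) isoforms of 8 genes, coloured by group. In treated libraries the unnamed form exceeds the named one at Fhl2, Apln and Cdkn3 and, in MK1775, at Cdk14, at Dnajc13 and Cd44 it appears from near 0, and at Itgb2 and Hnrnpf it falls.

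Falls were fewer, and several were seen in single isoforms. Src encodes the founding cytoplasmic tyrosine kinase. One of its 5 unnamed isoforms, of 14 exons and starting 676 bp upstream of the nearest named start (chr2:157265360-157313782, plus strand), stood at 6.79, 7.13 and 6.92 FPKM in NC, 0.682, 0.120 and 0.900 in MK1775 and 0.0360, 0.503 and 0.257 in siRNA. It fell, with log2 differences of -2.88 (SE 0.34, adjusted p = 0.0011) and -3.33 (SE 0.34, adjusted p = 0.00047). The share of all unnamed Src isoforms was not called (adjusted p = 0.48 and 0.52). Nptn encodes neuroplastin, a cell-adhesion protein of the immunoglobulin family. Its 8-exon unnamed isoform with both ends shared (chr9:58489657-58561311, plus strand) stood at 2.85, 1.96 and 7.48 FPKM in NC and was listed at 0 in all 6 treated libraries (adjusted p = 0.0018 and 0.0014). Named Nptn was higher in treated cells, at 39.5, 32.3 and 33.3 FPKM in NC, 55.1, 50.1 and 48.4 in MK1775 and 49.5, 51.0 and 52.3 in siRNA.

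Ssrp1 encodes a subunit of the histone chaperone FACT. Its 17-exon unnamed isoform, starting 202 bp upstream (chr2:84867376-84877453, plus strand), stood at 32.3, 53.9 and 39.0 FPKM in NC, 12.9, 17.2 and 16.1 in MK1775 and 6.65, 8.73 and 10.5 in siRNA. It fell in both groups, with log2 differences of -1.39 (SE 0.23, adjusted p = 0.0046) and -2.20 (SE 0.23, adjusted p = 0.00045). Fkbp8 encodes a mitochondrial immunophilin that binds BCL2. Its 9-exon unnamed isoform (chr8:70980636-70987978, plus strand) stood at 30.7, 15.1 and 24.9 FPKM in NC, 5.50, 5.81 and 7.26 in MK1775 and 8.23, 4.49 and 5.77 in siRNA and fell, with differences of -1.80 (SE 0.29, adjusted p = 0.0046) and -1.83 (SE 0.29, adjusted p = 0.0034). Arhgef7, an exchange factor for Rac and Cdc42, had a 20-exon isoform starting 3490 bp upstream (chr8:11829037-11885219, plus strand). It stood at 3.54, 10.2 and 5.87 FPKM in NC, 1.87, 1.45 and 0.684 in MK1775 and 0.116, 0.407 and 0.470 in siRNA. It fell with adjusted p = 0.016 in MK1775, where leaving out NC library 3 or MK1775 library 3 ended the call (adjusted p up to 0.051), and 0.0016 in siRNA, where no left-out library did.

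Fes and Frrs1 were each called against NC in 1 treated group and not in the other. Fes encodes a cytoplasmic tyrosine kinase, and its 19-exon unnamed isoform with shared ends (chr7:80027508-80038110, minus strand) stood at 1.70, 1.42 and 1.45 FPKM in NC, 0.232, 0.0841 and 0.0606 in MK1775 and 1.14, 1.60 and 1.28 in siRNA. It fell in MK1775, with a log2 difference of -1.70 (SE 0.19, adjusted p = 0.00091), and was not called in siRNA (adjusted p = 0.68). Frrs1 encodes a ferric-chelate reductase. Its unnamed share was 99.5, 96.0 and 68.6% in NC, 72.8, 76.3 and 74.5% in MK1775 and 0% in all 3 siRNA libraries, where named Frrs1 stood at 5.18, 5.22 and 4.81 FPKM against 0.0165, 0.130 and 1.07 in NC (adjusted p of the share = 0.0005 in siRNA and 0.48 in MK1775). The direct comparison of the treated groups called neither gene (adjusted p = 0.099 for the Fes isoform and 0.058 for the Frrs1 share). That comparison called 0 of 5244 loci by share with limma, a background of 0%, although 302 loci, 225 of them members, had an unadjusted p under 0.05. It called 2 member isoforms by level, against a background of 0.0193%.

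Hnrnpf and Itgb2 lost unnamed share as the named form gained. Hnrnpf encodes an RNA-binding splicing regulator, and its unnamed share was 32.7, 46.8 and 33.3% in NC, 13.6, 16.4 and 11.6% in MK1775 and 6.79, 8.94 and 10.4% in siRNA. The siRNA call held without each library (adjusted p = 0.0063), and the MK1775 call (adjusted p = 0.036) ended with 7 of 9 left-out libraries (adjusted p 0.04 to 0.12). Itgb2 encodes the beta-2 integrin chain known from leukocytes. Its share was 76.0, 83.2 and 79.2% in NC, 51.8, 37.9 and 57.5% in MK1775 and 45, 41.2 and 36.5% in siRNA (adjusted p = 0.023 and 0.007), and 5 of 9 left-out libraries ended the MK1775 call (adjusted p 0.027 to 0.1). The immune markers summed to 8.72 to 10.1 FPKM in NC, 5.28 to 7.38 in MK1775 and 6.24 to 8.17 in siRNA, nearly all of it Cd14 and Cd68. Cd3e and Adgre1 were at 0 in all 9 libraries, and the part of these markers in the Itgb2 result was not tested.

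Counting unnamed isoforms changed what a gene's level showed. For 3316 member genes both sums could be fitted, named transcripts alone and named plus unnamed. With named transcripts alone, 914 member genes (27.6%) were called in MK1775 and 967 (29.2%) in siRNA, against a background of 38.9% and 40.9% of all genes. With unnamed isoforms added, 2126 of 3636 (58.5%) and 2230 (61.3%) were called, against 52% and 54.3% of all genes. With named transcripts alone 18.2% of all genes were higher and 20.7% lower in MK1775, and 20% and 20.8% in siRNA. In MK1775 25.7% of all genes were higher and 26.3% lower with unnamed isoforms, and in siRNA 28.5% and 25.8%. The median SE of the log2 difference was 0.193 without and 0.0774 with unnamed isoforms. The direct comparison of the treated groups called 0 member genes by either sum with limma, against 0.00845% and 0.00818% of all genes. An unadjusted limma p under 0.05 was seen in 251 of 3316 and 271 of 3636 member genes. Over all genes it was seen in 729 of 11840 and 862 of 12226. In MK1775 833 genes were called in both sums in the same direction, 1059 only with unnamed isoforms and 68 only without. In siRNA these counts were 891, 1092 and 65. The balance of rises and falls depended on scaling, since adding unnamed isoforms gave 1133 higher and 993 lower for MK1775 as deposited, 1303 and 791 with median-of-ratios scaling, and 939 and 1245 with quantile normalization. For siRNA the same splits were 1260 and 970, 1408 and 834, and 930 and 1380. With named transcripts alone the splits were 422 and 492, 503 and 392, and 364 and 600 for MK1775, and 474 and 493, 544 and 429, and 380 and 682 for siRNA.

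In 13 genes for MK1775 and 11 for siRNA the 2 sums were called in opposite directions. Fhl2 fell by 3.61 on the log2 scale in named transcripts (adjusted p = 0.00021) and rose by 0.88 (SE 0.07, adjusted p = 8.2e-06) with unnamed isoforms in MK1775. The siRNA values were -2.45 (SE 0.38, adjusted p = 0.0014) and 0.83 (SE 0.07, adjusted p = 1.1e-05). Apln gave -0.91 and 0.57 in MK1775 (adjusted p = 0.013 and 3.6e-05), and -1.11 and 0.40 in siRNA (adjusted p = 0.005 and 0.0003). These 2 genes kept both calls in every alternative run. Cdkn3 gave -1.34 by named transcripts and 1.20 with unnamed ones in MK1775, but 3 of 9 left-out libraries ended the named call (adjusted p 0.0048 to 0.062). Mpc2 gave -1.71 and 0.20 in MK1775, and left-out libraries ended both calls, 2 of 9 each (adjusted p up to 0.054 and 0.066). Itgb2 was reversed the other way, at 0.69 by named transcripts and -0.55 with unnamed ones in MK1775, and 0.81 and -0.65 in siRNA, with all 4 calls kept in every alternative.

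**Figure D4:**
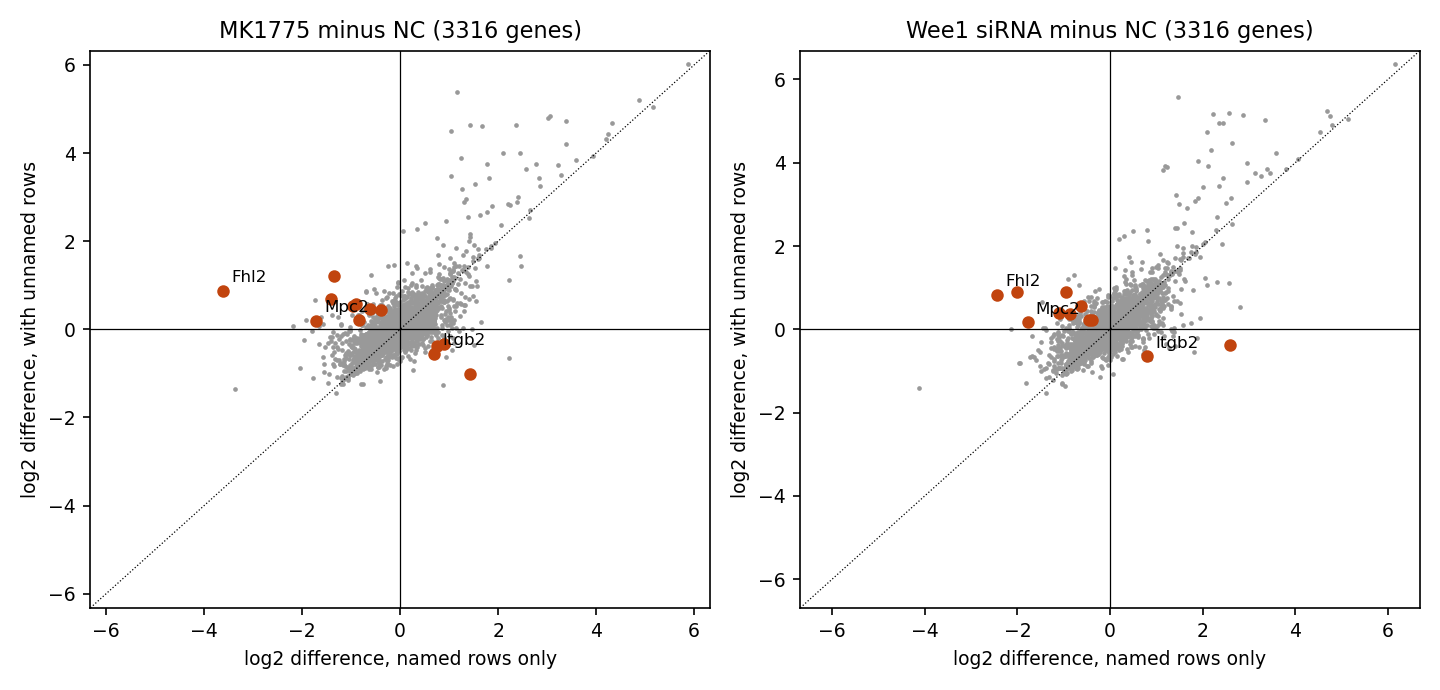
Each point is 1 of 3316 member genes, with its log2 difference from NC by named transcripts alone (horizontal) and with unnamed isoforms (vertical), for MK1775 (left) and siRNA (right). The dotted line marks equal values and large points are the 13 and 11 genes called in opposite directions, among them Fhl2, Mpc2 and Itgb2.

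Several of the most abundant members varied widely between replicates. Ptma encodes prothymosin alpha, a small acidic nuclear protein. A 6-exon unnamed isoform with shared ends, beside a 5-exon named one, stood at 494, 0 and 0 FPKM in NC, 0 in all 3 MK1775 libraries and 0, 509.7 and 0 in siRNA, so it took a large part of the gene in 2 libraries and none in 7. The sum over all Ptma isoforms was steady within groups, at 1334 ± 54.0 FPKM in NC (mean ± SD, n = 3), 857 ± 4.86 in MK1775 and 877 ± 36.1 in siRNA. It fell by 0.64 in MK1775 (adjusted p = 5.6e-06) and by 0.60 in siRNA (adjusted p = 7.2e-06), whereas named Ptma alone was not called (adjusted p = 0.27 and 0.06). Vim encodes the intermediate filament vimentin. Its unnamed isoforms stood at 751, 459.8 and 377 FPKM in NC, 354, 902 and 962 in MK1775 and 693, 223 and 642 in siRNA, and the groups overlapped (adjusted p of the share = 0.56 and 0.87). The unnamed share of Hsp90ab1, a cytosolic chaperone, was 13.8, 10.4 and 9.94% in NC, 13.8, 12.0 and 14.3% in MK1775 and 3.99, 25.1 and 1.81% in siRNA, so siRNA libraries 2 and 3 held the highest and the lowest of the 9.

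Tfrc encodes the transferrin receptor, which brings iron into cells. Its unnamed share was 39.4, 1.48 and 49.5% in NC, 39.5, 38.3 and 6.65% in MK1775 and 24.7, 47.2 and 0.993% in siRNA, with complete overlap. With both kinds summed, Tfrc fell by 1.00 in MK1775 (adjusted p = 0.00053) and by 0.83 in siRNA (adjusted p = 0.0015). Slc7a11 encodes the cystine importer that feeds glutathione synthesis. Its single unnamed isoform, with 13 exons beside 12 and shared ends, stood at 0.642, 0 and 0.681 FPKM in NC, 1.80, 1.40 and 1.66 in MK1775 and 1.67, 1.93 and 2.46 in siRNA. It held most of the gene in 8 of 9 libraries, and the share was not called (adjusted p = 0.31 and 0.25). Its level rose (adjusted p = 0.038 and 0.017), with calls that 6 and 1 of the 9 left-out libraries ended (adjusted p up to 0.11 and 0.061). Gpx4, which encodes the lipid peroxide reductase of ferroptosis defence, kept 1.91, 1.12 and 1.96% on its unnamed isoform in NC, 2.86, 1.87 and 1.43% in MK1775 and 1.01, 2.46 and 3.88% in siRNA.

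Cnbp encodes a zinc-finger nucleic-acid-binding protein and was steady between replicates. Its unnamed isoform with shared ends held 34.3, 32.2 and 36.7% in NC, 36.7, 35.4 and 31.9% in MK1775 and 32.3, 35.8 and 31.3% in siRNA. Unnamed and named Cnbp rose together, the unnamed isoform by 0.64 (SE 0.08, adjusted p = 0.0015) and 0.54 (SE 0.08, adjusted p = 0.0028) and named transcripts by 0.63 (SE 0.06, adjusted p = 0.0001) and 0.62 (SE 0.06, adjusted p = 0.0001). Tagln2, a calponin-family actin-binding protein, lay mostly on unnamed isoforms, at 94.5, 91.1 and 89.7% in NC, 94.7, 88.7 and 96.7% in MK1775 and 94.9, 93.0 and 78.5% in siRNA. Odc1, the first enzyme of polyamine synthesis, held 57.7, 55.3 and 26.6% in NC, 54.2, 44.2 and 70.4% in MK1775 and 55.6, 53 and 55.2% in siRNA, and its summed level fell by 0.65 and 0.70 (adjusted p = 1.2e-05 and 7.4e-06).

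**Figure D5:**
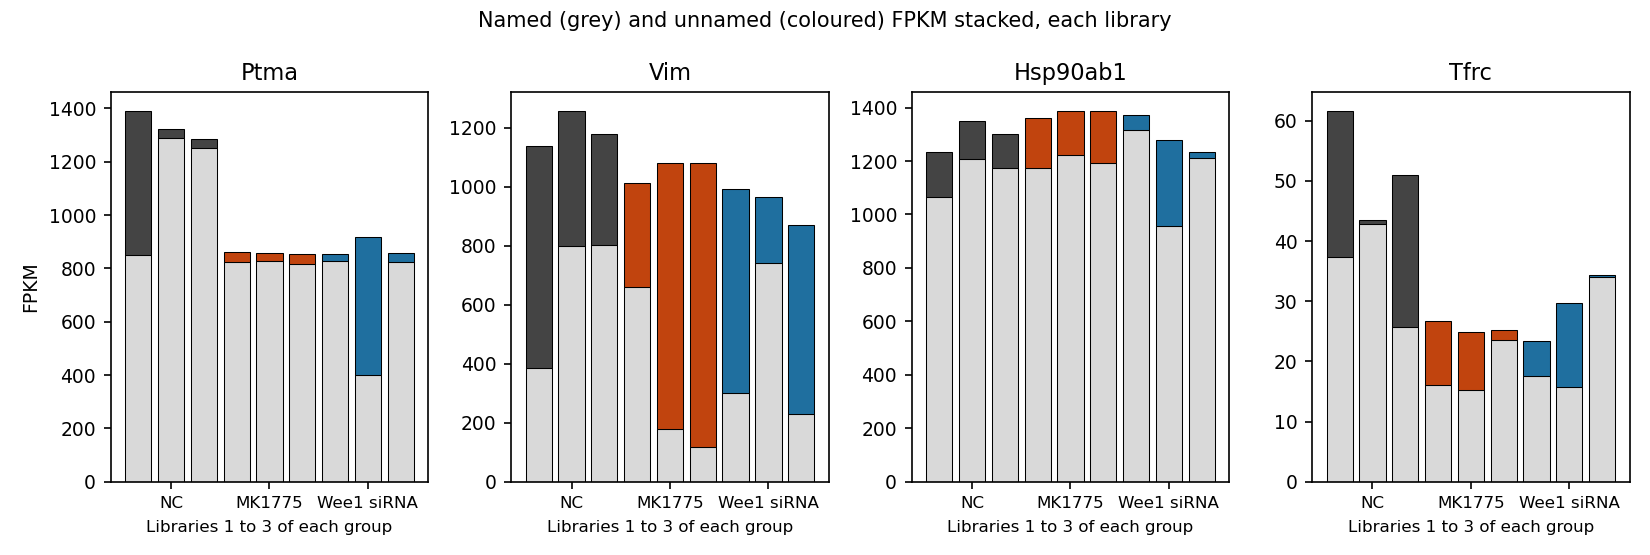
Stacked FPKM of named (grey) and unnamed (coloured by group) isoforms of 4 genes in each library. The division moves between replicates of 1 group, as in NC library 1 and siRNA library 2 for Ptma, while the Ptma bar heights stay close within a group.

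Such exchanges between replicates were common. Over the 2565 genes with unnamed and named FPKM of at least 0.5 in every group, the median coefficient of variation between replicates was 34.0%, 31.0% and 33.5% for unnamed FPKM in NC, MK1775 and siRNA. It was 15.9%, 14.5% and 16.8% for named FPKM and 6.88%, 4.46% and 6.41% for their sum. The unnamed share ranged over more than 50 percentage points between replicates of at least 1 group in 628 genes, and over less than 10 in every group in 559. Of the members, 1727 (26.8%) were at 0 in 1 replicate and at 1 FPKM or more in another of the same group, against 7.53% of the named transcripts of the same genes.

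Genes of RNA processing, the machinery that makes isoforms, gave few calls in share. The medians of the unnamed share in this and the next sentences are for NC, MK1775 and siRNA in turn, and over the 3508 member genes with FPKM in all 9 libraries they were 24.9%, 28.5% and 28.2%. Of 12 SR protein genes tested, 9 held members, with medians of 5.64%, 6.06% and 13.2%, and no share was called. Tra2a, a splicing activator, had 7 unnamed isoforms, and 1 with shared ends (9 exons beside 8) was at 0.344, 0.784 and 0.466 FPKM in NC, 3.17, 2.35 and 2.51 in MK1775 and 2.70, 6.44 and 3.71 in siRNA, which rose by 1.64 (SE 0.30, adjusted p = 0.008) and 2.16 (SE 0.30, adjusted p = 0.0018). Of 27 hnRNP genes, 11 held members and 1, Hnrnpf, fell in share in both groups. Of 57 core spliceosome genes, 28 held members with medians of 8.32%, 9.72% and 11.1%, and of 40 splicing regulators 26 did with 32.9%, 36.5% and 39.5%, and no share was called in either list. By level, 6 of the 55 core spliceosome members rose and 1 fell in MK1775, and 9 of the 83 members of the splicing regulators rose and 0 fell, beside 11.9% and 5.65% of all transcripts. In siRNA these counts were 4 and 2, and 11 and 1, beside 13.4% and 6.14%. A share that missed the threshold is not shown to be equal between groups. Of 18 nonsense-mediated decay genes, 11 held members, and Dhx34 was the 1 called. Of 22 cleavage and polyadenylation genes, 11 held members and none was called in share. Cstf1, a subunit of the cleavage stimulation factor, had a 6-exon isoform starting 54 bp upstream at 3.52, 4.61 and 9.34 FPKM in NC, 13.5, 9.45 and 14.2 in MK1775 and 10.5, 11.3 and 12.6 in siRNA (adjusted p = 0.048 and 0.06).

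Other pathways also gave few calls. Of 33 actin cytoskeleton and adhesion genes tested, 19 held members, with median shares of 19.4%, 33.4% and 26.6%. Fhl2, Cd44 and Actn1, 3 of these 19, rose in share in both groups and none fell, beside 3.51% and 3.62% of all loci that rose. With 19 genes this count is a description only. Actn1, which encodes alpha-actinin, was at 0.0629, 0 and 0.0818% in NC, 2.37, 9.27 and 2.22% in MK1775 and 2.88, 4.61 and 2.92% in siRNA, and 3 and 6 of 9 left-out libraries ended its calls (adjusted p up to 0.11 and 0.12). No share was called in 22 member genes of G1/S and DNA replication, 26 of G2/M and mitosis, 17 of DNA damage and repair, 5 of the integrated stress response, 6 of cholesterol synthesis or 18 of the proteasome. In the p53 list of 3 member genes Ei24, an endoplasmic reticulum protein gene induced by p53, held 0% on its unnamed isoform in all 3 NC libraries, 2.87, 3.73 and 0% in MK1775 and 41.8, 43.9 and 10.6% in siRNA, called in siRNA (adjusted p = 0.0046) and not in MK1775 (adjusted p = 0.34). In ferroptosis and glutathione metabolism 16 of 42 genes held members and 1 was called. That gene was Nfe2l2, which encodes the antioxidant regulator NRF2 and had an isoform starting 19042 bp downstream (chr2:75505857-75515943, minus strand). The isoform was listed at 0 in NC and stood at 2.06, 0.654 and 1.59 FPKM in MK1775 and 2.03, 4.56 and 1.53 in siRNA (adjusted p of the share = 0.038 and 0.012), and 6 of 9 left-out libraries ended the MK1775 call (adjusted p up to 0.11).

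Among genes listed under ribosomal proteins unnamed isoforms were minor. The cytosolic list held 412 gene names, of which 215 were tested. It may include names that are not working ribosomal protein genes. Of the 215, 30 held members, with median shares of 8.0%, 7.6% and 7.4%. Rplp0, a stalk protein gene, had a 7-exon isoform starting 2145 bp upstream that was listed at 0 in NC and stood at 6.04, 8.48 and 56.0 FPKM in MK1775 and 120.2, 13.9 and 8.08 in siRNA, spread widely within each group (adjusted p = 0.018 and 0.0086). Leaving out an NC library, any of the 3, ended the MK1775 call (adjusted p up to 0.056). Of 79 mitochondrial ribosomal protein genes 18 held members. Mrpl14, of the large mitochondrial subunit, went from 0.913, 0.148 and 1.02% in NC to 8.77, 14.8 and 10.0% in MK1775 and 11.2, 11.3 and 17.9% in siRNA (adjusted p = 0.0064 and 0.0034). Of 50 ubiquitin-specific protease genes 22 held members, and 2 rose in each group, Usp32 among them, beside 3.51% and 3.62% of all loci. In 3 of the 22 the share was undefined in at least 1 library, and Usp17ld and Usp17le were at 0 in all NC libraries.

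Of the remaining lists, transcription elongation had 10 member genes, with Leo1 higher in MK1775 and Ssrp1 lower in siRNA. For Ssrp1 3 of 9 left-out libraries ended that call (adjusted p up to 0.063). Translation initiation factors had 27 member genes, of which 2 rose and 2 fell in share in MK1775, and 2 rose and 1 fell in siRNA. In 7 of the 27 the share was undefined in at least 1 library, and Eif1ad4 and Eif1ad8 were at 0 in all NC libraries. Over all loci tested, 3.51% were higher and 0.4% lower in MK1775, and 3.62% and 0.439% in siRNA. Solute carriers had 48, with 2 higher in MK1775 and 0 called in siRNA, and Zfp zinc finger genes had 62, with 1 higher in both groups and 1 lower in MK1775. For 2 of the 62 the share was undefined in at least 1 library, and Zfp352 was at 0 in all NC libraries. Mitochondrial respiration had 17, with Uqcrc2 higher in MK1775, and DEAD and DEAH box helicases had 18, with Dhx34 higher in both groups. No share was called in 12 member genes listed under Rab GTPases, 6 under epithelial junctions or 2 under interferon and antigen presentation. The Rab list includes Rab10os by its name, and the junction list includes the keratins Krt7 and Krt18. None of 13 small nucleolar RNA host genes held a member. Over all genes tested, 29.7% held a member.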

How the data were processed

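RNA of 4T1 cells was sequenced in 9 libraries, and the authors deposited 1 table of FPKM per transcript, with coordinates, exon number and length. The submitters' processing notes name FastQC, Trim Galore, HISAT2, StringTie and GRCm39, without versions, and settings of the assembly are not stated there. FPKM was used as deposited, since depth and read counts are unknown. Groups follow the sample labels. Rows below a mean of 0.5 FPKM were left out, and log2(FPKM + 0.5) was fitted over all 3 groups with limma 3.58.1 (R 4.3.3, eBayes with trend), adjusting over all features with a threshold of 0.05. The share test used the log2 ratio of unnamed to named FPKM. Single sums were compared by exact permutation of samples. A simulation with known changes was run on the share test. Tables and figures used pandas 2.3.3 and matplotlib 3.10.9. Named genes were the 10 with the highest unnamed FPKM, the largest called changes in share or level without overlap, the members of each list with the smallest p, genes called in opposite directions by the 2 gene sums, and a short list of known genes. The members, the gene lists and the known genes were chosen with earlier results of these data known. Alternatives covered the pseudocount, the minimum, the scaling, the samples fitted, a replicate block and each library left out.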

Additional observations from a re-analysis of the deposited data

Results flagged for a closer look

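The 2 member isoforms called in the direct comparison of the treated groups differed between MK1775 and siRNA. Tmed5 encodes a cargo receptor of the early secretory pathway. Its unnamed isoform was listed at 0 in all NC and MK1775 libraries and stood at 5.72, 18.7 and 11.6 FPKM in the siRNA libraries. The fitted difference of MK1775 minus siRNA was -4.50 on the log2(FPKM + 0.5) scale (limma, adjusted p = 0.019), a value that depends on the pseudocount and is no bound. The call ended without NC library 1, 2 or 3 and without MK1775 library 2, with adjusted p from 0.0038 to 0.068 over the 9 left-out libraries. Ubl5 encodes a ubiquitin-like protein of pre-mRNA splicing. Its unnamed isoform stood at 0.351, 0 and 0.0286 FPKM in NC, 7.62, 10.6 and 10.4 in MK1775 and 0.303, 0.246 and 0.693 in siRNA. MK1775 was higher than siRNA by 3.48 (limma, adjusted p = 0.019), a call that ended without NC library 2, NC library 3 or MK1775 library 2, with adjusted p from 0.017 to 0.068 over the 9 left-out libraries.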

How the results depend on the processing

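Unnamed shares of member genes were called at 165 genes for MK1775 and 163 for siRNA. Leaving out 1 library at a time gave 105 to 169 and 119 to 164, the lowest MK1775 count being without NC library 2. A minimum of 5 FPKM gave 64 and 60. Counting only genes at 0.5 FPKM or more in every group, chosen after seeing the data, gave 30 and 24. With the replicate block the MK1775 count was 105. Same-numbered libraries correlated at -0.042 to 0.032 in share and at -0.188 to 0.063 in gene level. These values show no pairing by number, but with 3 libraries per group they cannot exclude one. For the direct comparison, where 0 were called, the fit of 2 groups, pseudocounts of 0.1 and 1 and the arcsine scale gave 1 each, and left-out libraries gave 0 to 8.

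Single isoforms were called at 679 for MK1775 and 746 for siRNA. Left-out libraries gave 471 to 675 and 523 to 696. A minimum of 5 FPKM gave 111 and 132, no minimum gave 428 for MK1775, and isoforms at 0.5 FPKM or more in every group gave 214 and 246. The 2 directly called became 0 with the fit of 2 groups, with the replicate block and among isoforms at 0.5 FPKM or more in every group. They became 5 with a pseudocount of 0.1, 1 with a minimum of 5 FPKM and 0 to 13 with left-out libraries.

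Gene levels by named transcripts alone gave 758 to 953 calls for MK1775 and 801 to 961 for siRNA with left-out libraries, and 163 and 204 past a log2 difference of 1. With unnamed isoforms these were 1831 to 2174, 1945 to 2250, 323 and 351. The direct comparison gave 0 by both sums, 1 with named transcripts in the fit of 2 groups, 0 to 2 with left-out libraries, and 1 with unnamed isoforms at a minimum of 5 FPKM or with none. The member share of all FPKM stayed 0.575 to 0.828 points above NC for MK1775 and 0.573 to 0.795 for siRNA with left-out libraries. Between MK1775 and siRNA it ranged from -0.0875 (without MK1775 library 2) to 0.148, and was -0.0676 without the 10 most abundant isoforms. The cause was not tested for any of these. Of 212 single values tested, 148 kept their call under every alternative run and 0 reversed. Depth is unknown, so what low FPKM values can show is limited by the spread of 3 libraries.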

Other observations

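Among metabolic genes, Acss2, which makes acetyl-CoA from acetate, had 4 unnamed isoforms, which summed to 0.725, 1.87 and 0.643 FPKM in NC, 12.6, 8.98 and 12.3 in MK1775 and 10.9, 8.38 and 8.69 in siRNA. An isoform of 20 exons was listed at 0 in NC and stood at 9.01, 5.56 and 2.99 FPKM in MK1775 and 0.224, 0.118 and 0.152 in siRNA. Another, of 18 exons, was also listed at 0 in NC and stood at 1.38, 0.162 and 4.53 FPKM in MK1775 and 6.84, 2.93 and 7.82 in siRNA. Named transcripts stood at 7.31, 7.60 and 7.52 FPKM in NC, 1.21, 4.69 and 2.59 in MK1775 and 4.78, 6.09 and 5.69 in siRNA. The share of all its unnamed isoforms was called in both groups (limma, adjusted p = 0.003 and 0.015), and leaving out libraries raised the siRNA value to 0.064. Wtap encodes a subunit of the m6A RNA methylation complex. One of its unnamed isoforms stood at 1.22, 1.21 and 2.00 FPKM in NC and 0.0419, 0.106 and 0 in MK1775 and was listed at 0 in all 3 siRNA libraries (limma, adjusted p = 0.0015 and 0.00086).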
